A study of Drosophila melanogaster with 3 samples.

Results

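Dense clusters of Grainy head (Grh) peaks are stretches of the fly genome where the rabbit anti-Grh antibody marked 4 or more places in close succession. They were selected on the positions in the rabbit peak list alone: neighbouring starts were chained at gaps of up to 1000 bp, and groups of at least 4 peaks were kept. This gave 342 dense groups among 8174 groups of all sizes, single peaks included, and they held 1626 of the 12158 rabbit peaks (13.4%). The rest were 555 groups of 3 peaks, 1590 of 2 and 5687 single peaks. Chromatin immunoprecipitation followed by sequencing was done on 13 to 16 h embryos of the w1118 strain, which all groups share, with chromatin fixed in 1.8% formaldehyde and sheared to between 0.1 and 0.5 kb. One library was made with the rabbit anti-Grh antibody, one with a mouse anti-Grh antibody (1638 peaks) and one with rabbit IgG as the control, which was not analysed here. Whole embryos were used, so the lists pool all cell types that bind Grh.

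Grh is a transcription factor of epithelia. In the fly embryo it acts in the epidermis and the tracheal tubes, among other epithelia, and it is known for switching on genes that build and repair the cuticle and hold epithelial cells together. It binds DNA as a dimer at short sites, and enhancers of genes it controls can hold several such sites close together. A peak list gives points called from the signal, not the sites themselves. Several peaks in a row can thus stand for several bound places or for a broad signal resolved into points.

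Each deposited peak is a 2 bp interval with a name and a score. The unit of the score is not stated, and its lowest value was 2.0 in the rabbit list. Read depths are unknown and each antibody had 1 library, so no value below has a replicate error and no test was made between groups. Shares are followed by their exact 95% binomial interval (Clopper-Pearson), which covers counting error alone. Positions are the first base of a peak in the dm3 build, counted from 1.

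Most dense groups were just large enough to enter. There were 201 groups of 4 peaks, 86 of 5, 30 of 6, 10 of 7 and 9 of 8. Above these stood single groups of 9, 10, 11 and 16 peaks and a pair of 12. From the first to the last peak a dense group spanned a median of 1658.5 bp (quartiles 1295 and 2167 bp), with a lowest span of 582 bp and a highest of 5607 bp. The median span grew with size, being 1454 bp for groups of 4, 1862 bp for groups of 5 and 2373 bp for groups of 6.

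**Figure D1:**
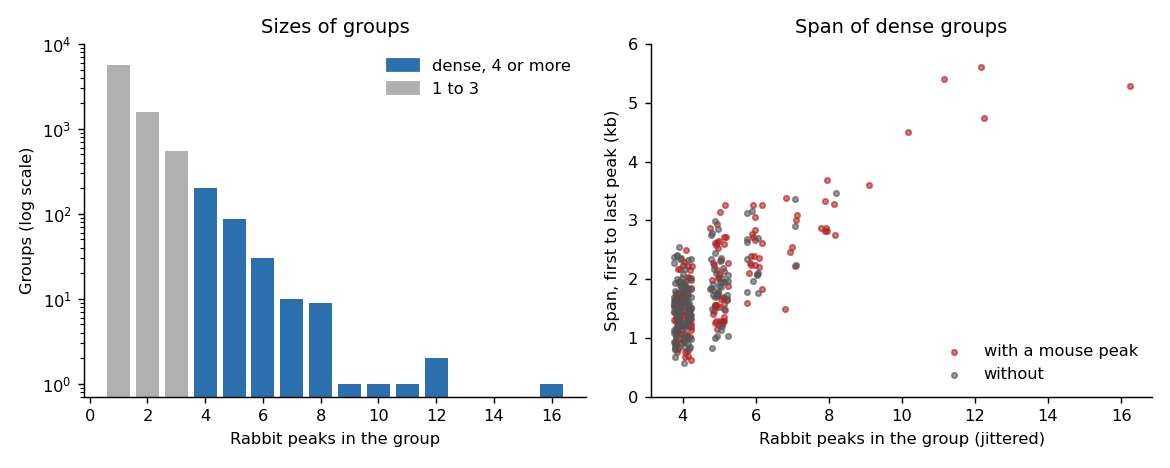
Left, the number of groups (log scale) by the number of rabbit peaks they hold, with dense groups in blue and groups of 1 to 3 peaks in grey. Right, the span of each of the 342 dense groups in kb against its number of rabbit peaks, with groups that had a mouse peak in red. The 6 groups of 9 or more peaks span 3609 to 5607 bp and all have a mouse peak.

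The thresholds of the rule fell within a continuous range. Groups of 4, just inside it, had a median inner gap of 457 bp and a median highest score of 14.0, and groups of 3, just outside, had 452.5 bp and 10.1. The longest group of 3 spanned 1864 bp, more than the 582 bp of the shortest group of 4. Of the inner gaps, 46 measured 951 to 1000 bp, and 23 groups of 4 had a largest gap in that range. On the other side, 21 groups of 3 had another peak 1001 to 1050 bp away.

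Neighbouring peaks inside dense groups lay a median of 442.5 bp apart (quartiles 288 and 653 bp, 1284 gaps). The smallest gap was 73 bp, and 133 gaps (10.4%) were of at most 200 bp. Gaps of at most 500 bp, the upper end of the stated shearing range, made up 753 of 1284 (58.6%). Whether neighbours at such distances rest on the same DNA fragments was not tested. Between the peaks of groups of 2 or 3 the median gap was 450 bp (quartiles 297 and 660 bp, 2700 gaps). The rule cuts gaps at 1000 bp in both, so these medians are a description of the groups it made and move with that limit.

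The 5 tightest groups by median gap, with ties settled by position, were all groups of 4 peaks. On X from 1964375 to 1964996 the gaps were 156, 132 and 333 bp, and the scores in order were 10.1, 4.91, 10.2 and 5.61. Its highest peaks by score thus alternated with lower ones, and a mouse peak lay 4 bp from the first. On 2R from 9471809 to 9472390, the shortest dense group of all, the gaps were 149, 157 and 275 bp and no score exceeded 4.83. The groups on 2L from 14021700, 2R from 2535572 and 3R from 7197872 had median gaps of 176, 184 and 187 bp.

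The name of each peak carries a number, unique in the list, and a rank, which several peaks can hold. Sharing of a rank followed distance. Of the 1284 pairs of neighbours in dense groups, 600 (46.7%) had the same rank and lay a median of 279 bp apart (quartiles 210 and 362 bp). The other 684 pairs had different ranks and lay a median of 625 bp apart (quartiles 480 and 792 bp). No pair with different ranks was closer than 202 bp, and all 133 pairs at up to 200 bp had one rank. The share with the same rank was 95.4% at 201 to 300 bp, 73.1% at 301 to 400 bp, 27.9% at 401 to 500 bp and 2.06% at 901 to 1000 bp.

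The number in the name moved with the rank without exception in these groups. All 600 pairs of neighbours with the same rank had consecutive numbers, rising with position, and none of the 684 pairs with different ranks did. A run of neighbours with the same rank therefore reads in the names as one numbered series. What ranks and numbers stand for is not stated in the labels or file headers. The rank alone does not mark a place, since up to 33 peaks of the rabbit list held the same rank, and 168 of the 342 dense groups had a rank that was also found on another arm. Among groups of 2 or 3 peaks, pairs with the same rank lay a median of 277 bp apart and pairs with different ranks 598 bp, close to the values in dense groups.

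**Figure D2:**
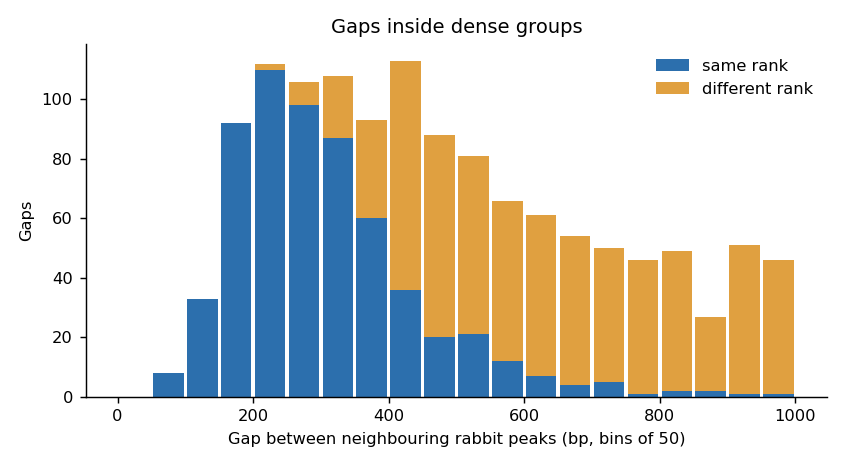
Number of gaps between neighbouring rabbit peaks inside dense groups, in bins of 50 bp, stacked by whether both peaks carry the same rank (blue) or different ranks (orange). Pairs with the same rank have a median gap of 279 bp and pairs with different ranks 625 bp, and every gap of up to 200 bp joins peaks of the same rank.

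Most dense groups were a patchwork of ranks. In 28 of 342 (8.19%, 5.51 to 11.6%) all peaks had 1 rank, and in 47 (13.7%, 10.3 to 17.9%) every peak had its own. Between these, 85 groups had 2 ranks, 125 had 3, 77 had 4, 20 had 5, 5 had 6 and 2 had 7, counting those whose peaks all differed. A single rank was found in 20 of 201 groups of 4 (9.95%), against 100 of 555 groups of 3 (18.0%) and 659 of 1590 groups of 2 (41.4%). In a larger group more neighbouring pairs must all share a rank, so these shares are not like for like. Per pair of neighbours, 600 of 1284 shared a rank in dense groups and 1110 of 2700 in groups of 2 or 3. Runs of 2 or more neighbours with 1 rank numbered 379 and took in 979 peaks (60.2%), with a median span of 377 bp. The longest run was of 8 peaks over 1791 bp on 2L. In 1 group, on 3R from 2948376 to 2951216, the rank 8246 returned after other ranks, at the second peak and the sixth, whose numbers were 10153 and 9187.

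Within a dense group the scores were uneven. The highest peak had a median score of 13.8 (quartiles 8.76 and 21.1), the second 7.83, the third 5.73 and the fourth 4.15. Relative to the highest peak of its own group, the second stood at a median of 69.2%, the third at 46.9% and the fourth at 33.4%. The highest score was a median of 1.99 times the median score of its group. It was at least 2 times the second in 95 groups (27.8%, 23.1 to 32.8%) and under 1.2 times it in 92 (26.9%, 22.3 to 31.9%). Groups with one leading peak and groups with near-equal leaders were thus about as frequent.

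The highest peak fell at every place in the row at similar counts. It was the first or the last peak in 151 of 342 groups (44.2%, 38.8 to 49.6%), and end places would give 44.2% if each place were as likely. By place from first to last, it was found in 50, 55, 45 and 51 of the 201 groups of 4, and in 15, 19, 17, 17 and 18 of the 86 groups of 5. The median score was 6.03 at the ends and 5.98 inside. The second peak by score lay beside the highest in 164 groups (48.0%, 42.6 to 53.4%). Neighbouring places would also give 44.2% if each pair of places were as likely, which is within that interval. The second peak shared the rank of the highest in 116 groups (33.9%, 28.9 to 39.2%), and the median distance between them was 778 bp.

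Peak by peak, scores in dense groups were much like those elsewhere at the median and quartiles. Their median was 6.0 (quartiles 3.83 and 9.70), against 5.98 (3.90 and 10.2) for the 10532 peaks in groups of 1 to 3. Scores of 30 and over made up a smaller share in dense groups, 38 of the 1626 peaks, against 430 of 10532 in groups of 1 to 3. The highest score in a dense group was 78.8, while groups of 3, groups of 2 and single peaks reached 233, 145 and 213. The highest of more peaks is taken in a larger group, and the median highest score was 13.8 in dense groups, 10.1 in groups of 3, 8.48 in groups of 2 and 5.97 in single peaks. In the authors' numbering, 229 of the 1626 peaks (14.1%) were within the first 10% of the list, against 987 of 10532 (9.37%) in groups of 1 to 3.

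The 5 dense groups with the highest-scoring peaks were all groups of 4, and 3 of them had no mouse peak. On X from 3028720 to 3030682 the scores in order were 78.8, 4.85, 5.69 and 2.23, each with a rank of its own. This was the steepest dense group, with the highest peak 13.9 times the second, and the mouse peak closest to it was 35130 bp off. On 3R from 24460283 to 24461482 the scores were 2.34, 8.13, 56.9 and 56.9, all with 1 rank. That group ended in a pair of near-equal leaders 392 bp apart, and its highest peak was 223779 bp from any mouse peak.

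On 4 from 855120 to 856627 the scores rose along the row, being 4.15, 27.3, 34.8 and 55.8, and the highest peak was 209958 bp from any mouse peak. On 3R from 12623602 to 12624611 the scores were 16.9, 9.48, 33.0 and 47.4. There the single mouse peak lay 6 bp from the first rabbit peak, the third by score, while the highest rabbit peak was 1003 bp from it. The last of the 5, on 3R from 16083115 to 16084744, had scores of 13.2, 44.8, 4.12 and 15.4. Its 3 mouse peaks lay 50, 7 and 19 bp from the first, the second and the fourth of these, and the one at the highest rabbit peak had the highest mouse score, 9.79.

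The mouse antibody, a separate library that took no part in choosing the groups, marked 180 of the 342 dense groups within 250 bp of a member (52.6%, 47.2 to 58.0%), where 17.4% of all groups were marked. The share was 36.2% (32.2 to 40.4%) for groups of 3, 25.7% (23.5 to 27.9%) for groups of 2 and 11.1% (10.3 to 11.9%) for single peaks. A longer group gives a mouse peak more room, so the share per peak is the closer comparison. Of the 1626 peaks in dense groups 314 had a mouse peak within 250 bp (19.3%, 17.4 to 21.3%), against 1442 of 10532 in groups of 1 to 3 (13.7%, 13.0 to 14.4%). Over all rabbit peaks the figure was 14.4%.

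Close neighbours can claim the same mouse peak. When each mouse peak was given to its nearest rabbit peak alone, 261 dense peaks had one (16.1%, 14.3 to 17.9%), against 1346 of 10532 in groups of 1 to 3 (12.8%, 12.1 to 13.4%). This share was 13.2% over all rabbit peaks. Within the smaller groups it was 14.9% (13.2 to 16.7%) in groups of 3, 14.7% (13.5 to 16.0%) in groups of 2 and 11.1% in single peaks. The gap between dense groups and groups of 3 was thus within their intervals by this count.

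Mouse peaks sat more often on the leading peak of a dense group than on the peaks below it in score. Of the 265 mouse peaks of dense groups, 145 (54.7%) were nearest to the highest rabbit peak. The highest rabbit peak was the nearest to a mouse peak in 143 of 342 groups (41.8%, 36.5 to 47.2%). The share was 19.9% (15.8 to 24.5%) for the second by score, 9.94% (6.98 to 13.6%) for the third and 3.80% (2.04 to 6.41%) for the fourth. Among the 180 groups with any mouse peak, the highest rabbit peak had one in 143 (79.4%, 72.8 to 85.1%). When groups of at least 3 peaks were taken, this share was 82.9%, within that interval. The pattern was thus not limited to groups of 4 or more. In the 117 groups with a single mouse peak, it lay at the highest rabbit peak in 88 (75.2%, 66.4 to 82.7%). Dense groups differed by score too: the median highest score was 18.3 in those with a mouse peak and 8.80 in those without, while their median spans were 1696.5 and 1649 bp.

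**Figure D3:**
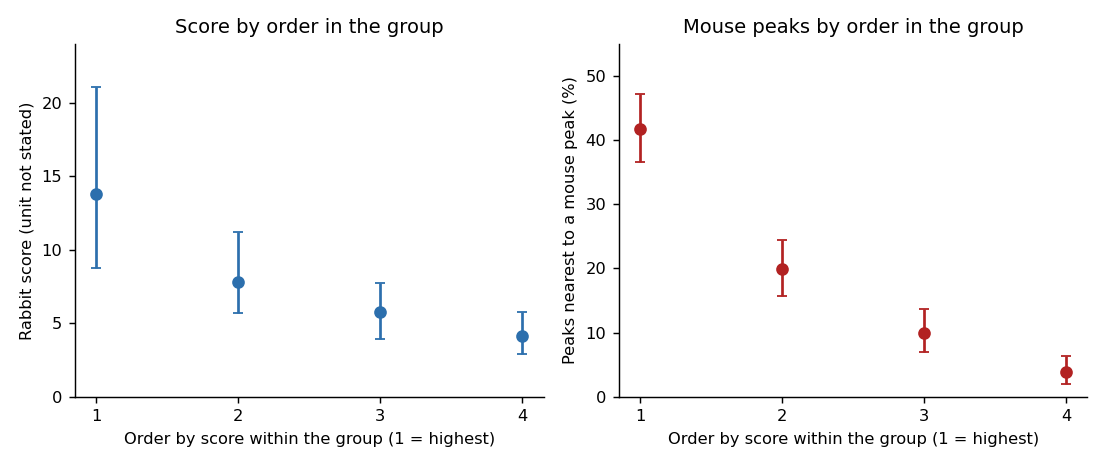
Peaks of the 342 dense groups by their order of score within the group. Left, the rabbit score as median with quartiles. Right, the share of peaks that were the nearest rabbit peak of a mouse peak within 250 bp, with exact 95% binomial intervals. Both decline from the highest peak (median score 13.8, share 41.8%) to the fourth (4.15 and 3.80%).

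At like rabbit scores, dense peaks had a mouse peak at least as often as other rabbit peaks in most of the range. In 7 of 8 score bands the share by nearest peak was higher in dense groups, and in 2 of them the intervals did not overlap. In the rest they overlapped. The band from 2 to 3 rested on 1 such peak of 226 in dense groups and 1 of 1402 in groups of 1 to 3. For scores of 15 to 20 the shares were 56.7% (45.8 to 67.1%) and 52.6% (48.4 to 56.8%). For scores of 7.5 to 10 it was 16.8% (12.1 to 22.4%, 220 peaks) in dense groups and 9.34% (7.78 to 11.1%, 1253 peaks) in groups of 1 to 3. For scores of 20 to 30 it was 81.1% (70.3 to 89.3%, 74 peaks) in dense groups and 60.2% (55.8 to 64.5%, 500 peaks) in groups of 1 to 3. In the band from 3 to 5 it was lower in dense groups, 0.54% against 0.84%. Above 30 both were lower than in the band before, at 47.4% (31.0 to 64.2%, 38 peaks) in dense groups and 44.0% (39.2 to 48.8%, 430 peaks) in the others.

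**Figure D4:**
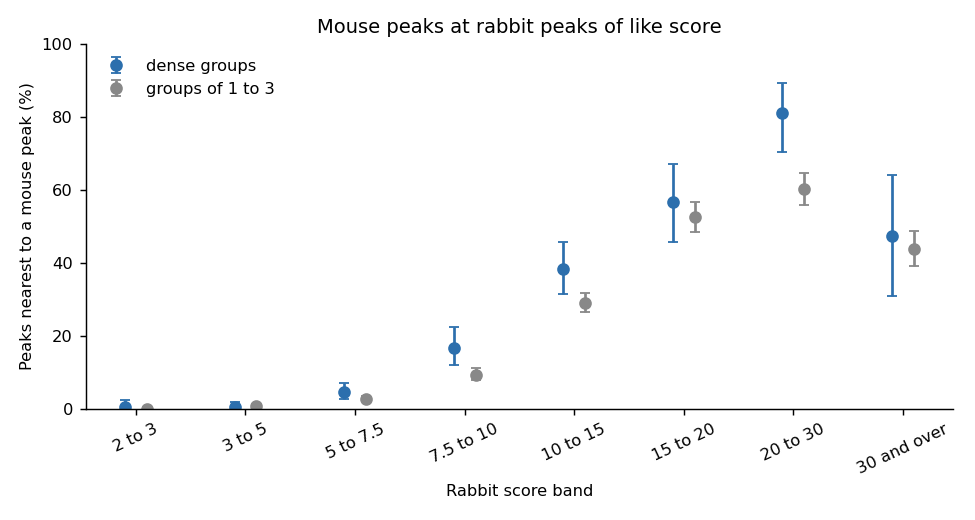
Share of rabbit peaks that were the nearest rabbit peak of a mouse peak within 250 bp, by band of rabbit score, for peaks in dense groups (blue) and in groups of 1 to 3 (grey), with exact 95% binomial intervals. The intervals are apart at scores of 7.5 to 10 and of 20 to 30, and both shares are lower above 30 than between 20 and 30.

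In all, 265 of the 1638 mouse peaks (16.2%) belonged to dense groups. There were 117 groups with 1 mouse peak, 45 with 2, 15 with 3, 2 with 4 and 1 with 5. The mouse peaks lay a median of 11 bp from their rabbit peak (quartiles 6 and 24 bp), and the median was also 11 bp in groups of 1 to 3. Their own mouse scores had a median of 4.69 (quartiles 3.11 and 6.16) in dense groups, against 5.36 (3.76 and 7.15) in groups of 1 to 3. Where a group had 2 or more, neighbouring mouse peaks were a median of 553 bp apart (quartiles 380 and 987 bp, 85 gaps). In 52 of these 63 groups (82.5%) the mouse peak with the highest mouse score lay at the highest-scoring of the rabbit peaks that had a mouse peak. In 4 of the 85 neighbouring pairs both mouse peaks had the same nearest rabbit peak. A group whose mouse peaks all had the same one counts here by construction. With 2 mouse peaks, as in 45 groups, few outcomes are possible, and no expected share was computed.

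Inner peaks had a mouse peak slightly more often than end peaks, with overlapping intervals. Among end peaks 94 of 684 (13.7%, 11.3 to 16.6%) were nearest to a mouse peak, and among inner peaks 167 of 942 (17.7%, 15.3 to 20.3%). Beyond the first or the last rabbit peak lay 45 of the 265 mouse peaks. One mouse peak stood inside a dense group but just past the 250 bp match distance from its members. On 2R at 17137448, with a mouse score of 6.81, it was 264 bp from the nearest rabbit peak.

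Where a run of rabbit peaks with 1 rank had a mouse peak, it mostly had a single one. Of 379 runs of 2 or more peaks, 139 (36.7%, 31.8 to 41.7%) had a mouse peak, and 108 of these had exactly 1. In 121 of the 139 (87.1%, 80.3 to 92.1%) the highest-scoring peak of the run was nearest to a mouse peak. Peaks with no neighbour of the same rank had a mouse peak in 89 of 647 cases (13.8%, 11.2 to 16.7%). This was near the 13.2% over all rabbit peaks by the same count. A run offers several peaks for a mouse peak to lie at, so its share is per run and not per peak. The share for runs outside dense groups is not given, so whether it is particular to dense groups was not tested.

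Dense groups with more peaks had a mouse peak more often. A mouse peak was present in 45.8% (38.7 to 52.9%) of groups of 4, 55.8% (44.7 to 66.5%) of groups of 5, 65.0% (48.3 to 79.4%) of groups of 6 or 7 and 14 of 15 groups of 8 or more (93.3%, 68.1 to 99.8%). Per rabbit peak the number of mouse peaks was 15.8%, 16.5%, 14.4% and 21.8% in these size classes, and per kb of span it was 0.43, 0.43, 0.36 and 0.54. The median highest score was between 12.7 and 15.1 in each.

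The 16-peak group on 2L from 12002211 to 12007498 was the largest. Its scores in order were 2.0, 5.32, 2.40, 4.80, 4.36, 3.80, 6.38, 3.19, 22.0, 5.50, 4.01, 7.89, 7.32, 4.31, 2.68 and 4.02. A single strong peak thus stood among weak ones, 2728 bp from the first, and it closed the run of 8 peaks with rank 535. A mouse peak lay 11 bp from it (mouse score 5.62) and another 39 bp from the peak with score 7.32 (mouse score 2.24). The remaining 14 rabbit peaks had no mouse peak of their own. A further dense group, of 4 peaks, began 2903 bp to the right.

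The 12-peak group on 2L from 15908921 to 15913661 had 6 ranks. Its scores in order were 3.82, 2.94, 25.9, 7.77, 9.09, 5.01, 2.12, 6.40, 2.26, 6.61, 2.17 and 2.69. The 3 highest stood side by side, and they were the 3 that had mouse peaks, at 7, 48 and 25 bp with mouse scores of 5.31, 3.75 and 3.18. The order of the mouse scores was not that of the rabbit scores, as the rabbit peak of 9.09 had the lowest mouse score.

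The 12-peak group on 2R from 19756151 to 19761757 was the longest, at 5607 bp. Its scores in order were 5.22, 2.31, 9.05, 19.4, 25.4, 5.45, 9.76, 11.1, 10.9, 10.4, 5.93 and 3.24. It had 4 mouse peaks, 10, 1, 1 and 8 bp from the rabbit peaks of 9.05, 19.4, 25.4 and 11.1, with mouse scores of 2.12, 5.02, 5.66 and 4.19. The rabbit peaks of 10.9, 10.4 and 9.76 had none nearest to them, although they scored above the 9.05 that did.

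The group of 11 peaks on 2R from 7515717 to 7521112 was weak throughout and had 7 ranks. Its highest peak, with a score of 9.34, came first and was 2670 bp from the nearest mouse peak. Its 2 mouse peaks each lay 1 bp from a rabbit peak, of scores 5.54 and 3.17, and had mouse scores of 2.22 and 2.45. The group of 10 on 2R from 5437845 to 5442347 had a single mouse peak, 1 bp from its highest rabbit peak (score 18.4), and 8 peaks to the right of it that scored at most 6.93.

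The group of 9 on X from 2029014 to 2032622 had scores of 6.74, 18.4, 21.2, 5.74, 7.43, 7.68, 10.1, 4.62 and 3.0. Its 4 mouse peaks lay 14 to 23 bp from the rabbit peaks of 18.4, 21.2, 7.68 and 10.1, which were the 4 highest. Among the 4 groups of 8 that complete the first 10 by size, those on 2R from 3945940 and from 17135558 had 3 mouse peaks each within 250 bp of a member. The group from 17135558 also held the mouse peak at 17137448, which lay just past that limit. That on 2R from 10849728 had 1, at its highest peak of 26.0, and that on 2L from 3802893 had none.

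**Figure D5:**
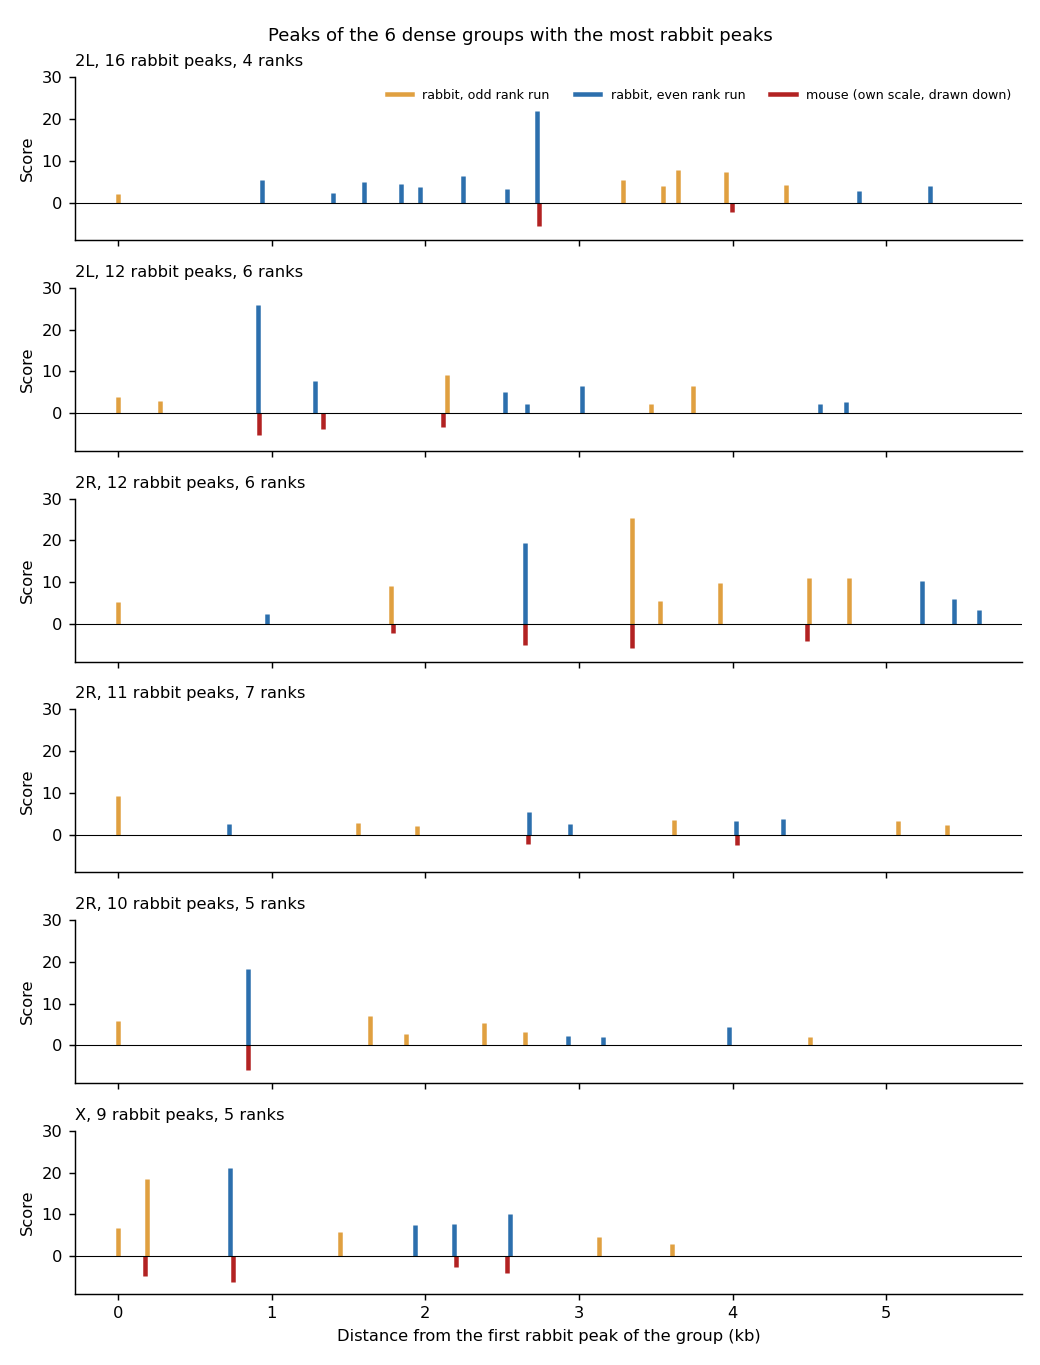
Peaks of the 6 dense groups with the most rabbit peaks, placed by distance from the first rabbit peak (kb). Upward lines are rabbit scores, coloured in turn (orange, blue) for successive runs of peaks with the same rank, and downward lines are mouse scores on their own scale. In 5 of the 6 groups the tallest rabbit peak has a mouse peak; in the group of 11 on 2R it has none.

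The dense group with the most mouse peaks was one of 4 rabbit peaks. This group, on 2L from 19438865 to 19440738, had 5 mouse peaks, and the 12-peak group on 2R from 19756151 and the 9-peak group on X came next with 4 each. The rabbit scores of the 4-peak group were 43.6, 38.9, 10.7 and 15.4, and the mouse peaks lay at 23 bp (mouse score 8.47), 8 bp (10.6), 161 bp (4.14), 30 bp (3.44) and 12 bp (5.26) from the nearest of these. The second rabbit peak was the nearest for both the second and the third mouse peak. Chained by the same rule, the mouse list had 4 groups of 4 or more peaks. One was that at 19438842 on 2L, while those on 3R overlapped no dense group. The one on 2R, from 17136663 to 17138415, fell within the 8-peak dense group from 17135558 and took in the mouse peak at 17137448. The 4-peak group on 2L from 714451 and the 5-peak group on 2L from 9448399 had 3 mouse peaks each.

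The dense groups with the highest scores of all, 78.8, 56.9 and 55.8, had no mouse peak. At the median, though, dense groups without any mouse peak were of lower score, as given above. The largest, 8 peaks on 2L from 3802893 to 3806366, had 7 ranks and scores between 2.34 and 6.32, and its peaks lay 29162 to 30770 bp away from any mouse peak. The 7-peak groups on 2R from 9109896, 3L from 11579918 and 3R from 9876655 had highest scores of 4.85, 13.3 and 10.7, and the 6-peak group on 2L from 5980259 had 7.07. A 6-peak group on 3L from 9685892 to 9688587 had 6 different ranks, scores of at most 7.05, and its closest mouse peak was 34507 bp off. Over the 162 groups without a mouse peak, the highest rabbit peak was a median of 19955 bp from the nearest one (quartiles 6974 and 42686 bp), and 33 (20.4%) had one within 5000 bp.

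Dense groups were found on every major arm. They were 63 of the 1384 groups on 2L (4.55%, 3.52 to 5.79%), 76 of 1618 on 2R (4.70%, 3.72 to 5.84%), 62 of 1695 on 3L (3.66%, 2.82 to 4.66%), 82 of 2048 on 3R (4.0%, 3.20 to 4.95%) and 57 of 1353 on X (4.21%, 3.21 to 5.42%). These intervals all overlap. Chromosome 4 had 2 of 54, both without a mouse peak. The heterochromatic sequences had 0 of 22, with an exact interval up to 15.4%. On X 22 of 57 dense groups had a mouse peak (38.6%, 26.0 to 52.4%), against 158 of 283 on the major autosome arms (55.8%, 49.8 to 61.7%), with overlapping intervals. The median highest rabbit score was 10.8 on X and 14.2 on those arms. The share over groups of all sizes is not given by arm, so whether this difference is particular to dense groups was not tested.

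Some dense groups were themselves close together. The nearest other group of any size lay a median of 2173 bp from a dense group, 2591 bp from a group of 3, 3081 bp from a group of 2 and 3620 bp from a single peak. Neighbouring dense groups on an arm were a median of 228883 bp apart, but 49 of the 342 stood within 10000 bp of another, in 24 runs. The only run of 3 such groups was on 2R from 13688401 to 13695208, with 14 rabbit peaks in 6808 bp, 2 mouse peaks and separations of 1494 and 1346 bp. Both of its mouse peaks were in the third group, whose highest score, 24.4, was above the 10.8 and 8.04 of the others. Genes at these positions are not named, as no annotation of the dm3 build was used here.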

How the data were processed

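ChIP-seq libraries of w1118 embryos were made with rabbit anti-Grh, mouse anti-Grh and rabbit IgG, 1 each. Reads were aligned with Bowtie to dm3, per the submitters' processing notes; how peaks were called, and whether the IgG library entered, is not given in the sources used here. For each anti-Grh library the authors deposited 1 list, which gives a score of unstated unit for each peak, and the scales of both lists may differ.

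Rabbit peaks were sorted by sequence and start and chained at gaps of up to 1000 bp, and groups of 4 or more were kept. A mouse peak counted as at a rabbit peak within 250 bp, or was given to its nearest rabbit peak within that distance. Alternative values of a median were judged against its exact binomial order-statistic interval. The chaining and matching were tested on simulated data. Members, lists and settings were chosen with earlier results of these data known. Regions named are the 10 dense groups with the most peaks, the 5 without a mouse peak with the most peaks, and the 5 first by span, short median gap, mouse peaks, score and ranks; the group with a returning rank, the run of 3 groups and the lone mouse peak were chosen after their values were seen. Alternatives changed the chaining gap, the fewest peaks, the match distance, the score range and the arms. Depth is unknown. No genome of the files' build was used, so sequences, motifs and genes are not given. Scripts ran under Python 3.11.15 with SciPy 1.17.1, pandas 2.3.3, NumPy 2.4.6 and matplotlib 3.10.9.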

Additional observations from a re-analysis of the deposited data

How the results depend on the processing

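Of 69 alternative values for 10 results, 37 lay within the 95% interval of the reported value, or within 1.5 times it for a count or ratio. The settings fix by construction how many peaks a group holds, how far they spread and how near a mouse peak must be; no other cause was tested. Chaining at up to 500 bp gave 95 dense groups, a median span of 997 bp, a median gap of 293.5 bp, 1 rank in 34.7%, a mouse peak at 23.5% of peaks and a highest to median score ratio of 1.72. Chaining at up to 2000 bp gave 610 groups, 2764 bp, 566 bp and 1 rank in 2.62%. End places make up more of a small group than of a large one. The shares with the highest peak at an end, given next, are thus not like for like. With at least 3 peaks there were 897 groups, a span of 1172 bp, 42.5% with a mouse peak, 62.0% with the highest peak at an end, 1 rank in 14.3% and a ratio of 1.66. With at least 6 peaks there were 55 groups, a span of 2715 bp, 72.7% with a mouse peak, 30.9% with the highest peak at an end, 70.0% of marked groups with a mouse peak at the highest peak, 1 rank in 0% and a ratio of 2.28. Keeping only the upper 50% of rabbit peaks by score gave 67 groups, a span of 1564 bp, 74.6% of groups and 37.7% of peaks with a mouse peak, 1 rank in 17.9% and a ratio of 1.61. A match distance of 100 bp put a mouse peak at 15.6% of peaks and one of 500 bp at 28.2%, and 46.5% of groups had a mouse peak between their first and last peak. The ratio of the shares of peaks with a mouse peak, dense groups over groups of 1 to 3, was 1.41 and ran from 1.25 to 1.74 over its 8 alternatives, which were chosen after seeing the data. Its size thus moved with the match distance, 1.25 at 100 bp and 1.74 at 500 bp, and it was 1.66 with chaining at up to 500 bp. In this ratio a mouse peak counts for every rabbit peak within the match distance. By nearest rabbit peak alone the shares were 16.1% in dense groups and 12.8% in groups of 1 to 3. No paired analysis was possible because there was 1 library per antibody, which also leaves no replicate to omit.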
